A study of Mus musculus with 2 samples.

Results

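LT-HSCs, the long-term stem cells of the blood, were read with and without the circular RNA cia-cGAS. A set of 9 genes was followed in them, grouped as FOXO factors, brakes on growth signalling and regulators of quiescence. The genes were taken by name from the array annotation: Foxo1, Foxo3, Txnip, Tsc1, Stk11, Btg1, Btg2, Klf6 and Fbxw7. These 9 genes were read by 21 transcript rows, out of 24171 named genes and 44170 rows on the array. Each group was 1 single-colour NimbleGen array (Cy3) of RNA from LT-HSCs, which were sorted out of marrow flushed from 8-week-old C57BL/6 mice. The groups, labelled cia-cGAS WT and cia-cGAS knockout, shared strain, age and tissue and differed in the cia-cGAS genotype alone as far as the labels go. The sources used here do not give how the allele was made, the sort markers or any pooling of animals. With 1 array a group there is no replicate error, no test and no p-value, and each difference describes these 2 arrays.

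FOXO transcription factors stay in the nucleus when phosphoinositide 3-kinase (PI3K) and AKT signalling is low, and there they switch on cell cycle inhibitors, antioxidant enzymes and death genes. Tsc1, with its partner Tsc2, holds back the growth kinase mTOR downstream of AKT, and Stk11 (LKB1) activates AMPK, which slows growth when energy is short. Mouse LT-HSCs that lose Foxo3, Tsc1, Stk11 or Fbxw7 are known to leave quiescence or to be lost over time. Txnip, an arrestin-like protein that binds thioredoxin and limits glucose uptake, is a FOXO target. The related antiproliferative proteins Btg1 and Btg2 bring the CCR4-NOT deadenylase to mRNAs. Klf6 is a zinc finger transcription factor, and Fbxw7 is the part of an SCF ubiquitin ligase that selects cyclin E, MYC and NOTCH for destruction.

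The promoters of 4 members are shown, 2 that hold a FOXO element and the 2 members whose level differed most. All 9 members matched the RefSeq promoter table (GRCm38.p6, a later build than the MM9 of the array), with 11 windows of 300 bases because Fbxw7 has 3 starts. Each sequence is the 250 bases before the start, 5′ to 3′ on the gene's strand, with motif matches in capitals: Txnip (chr3:96557707-96557956, plus strand), Btg1 (chr10:96616751-96617000, plus strand), Foxo3 (chr10:42276696-42276945, minus strand) and Tsc1 (chr2:28640983-28641232, plus strand).
Txnip: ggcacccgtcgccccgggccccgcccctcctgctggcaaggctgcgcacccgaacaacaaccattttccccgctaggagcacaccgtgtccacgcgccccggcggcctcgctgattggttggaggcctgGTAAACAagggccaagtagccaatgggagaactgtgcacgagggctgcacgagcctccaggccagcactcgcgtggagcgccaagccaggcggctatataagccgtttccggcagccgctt
Btg1: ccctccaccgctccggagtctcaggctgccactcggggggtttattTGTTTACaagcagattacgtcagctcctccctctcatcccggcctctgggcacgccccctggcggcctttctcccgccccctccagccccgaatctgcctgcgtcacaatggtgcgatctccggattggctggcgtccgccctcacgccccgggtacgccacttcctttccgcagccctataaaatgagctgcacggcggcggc
Foxo3: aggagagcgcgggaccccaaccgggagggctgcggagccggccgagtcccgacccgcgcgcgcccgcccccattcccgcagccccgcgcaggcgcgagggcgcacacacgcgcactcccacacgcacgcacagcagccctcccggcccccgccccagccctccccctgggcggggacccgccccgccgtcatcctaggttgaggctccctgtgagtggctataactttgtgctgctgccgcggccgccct
Tsc1: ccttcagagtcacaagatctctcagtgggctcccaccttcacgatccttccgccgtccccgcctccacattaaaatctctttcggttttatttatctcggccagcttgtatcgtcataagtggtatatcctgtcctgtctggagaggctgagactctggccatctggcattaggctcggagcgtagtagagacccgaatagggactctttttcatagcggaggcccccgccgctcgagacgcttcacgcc

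The motif of FOXO factors, searched as GTAAACA on both strands, was found in 3 of the 11 member windows, those of Txnip, Btg1 and Stk11, and in 3.65% of all 32851 windows. In Txnip it lay at positions -121 to -115, counting the first transcribed base as 0, and in Btg1 at -204 to -198. In Stk11 it lay after the start, at 16 to 22. The E-box CACGTG was found in Klf6 alone among the members (7.15% of all windows), and the cyclic AMP response element TGACGTCA in Btg2 alone (1.79%). The interferon-stimulated response element, searched as GAAA, any 2 bases and GAAA, was in 0 of the 11 (3.44% of all windows). No matches overlapped in the member windows. A match is a string of letters and no measure of binding. The Foxo3 window was 75% G and C with 35 CpG pairs, against medians of 52.7% and 7 over all windows. This was not particular to Foxo3: Btg2 had 72% and 32, and Stk11 61.3% and 33. Of the member windows, only those of the later Fbxw7 starts lay below both medians, at 29.7% and 1 and at 46% and 6.

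The values are RMA intensities on the log2 scale, and each row is the summary of 3 probes. Rows use different probes, so levels are compared between the arrays and not between rows. A detection floor was set for each array, 9.11 (wild type) and 8.97 (knockout), from olfactory, vomeronasal and taste receptor rows. By their brightest row all 9 members lay above both floors. Of the 21 rows, 12 lay above both floors, 2 above that of the wild type alone and 7 below both.

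**Figure D1:**
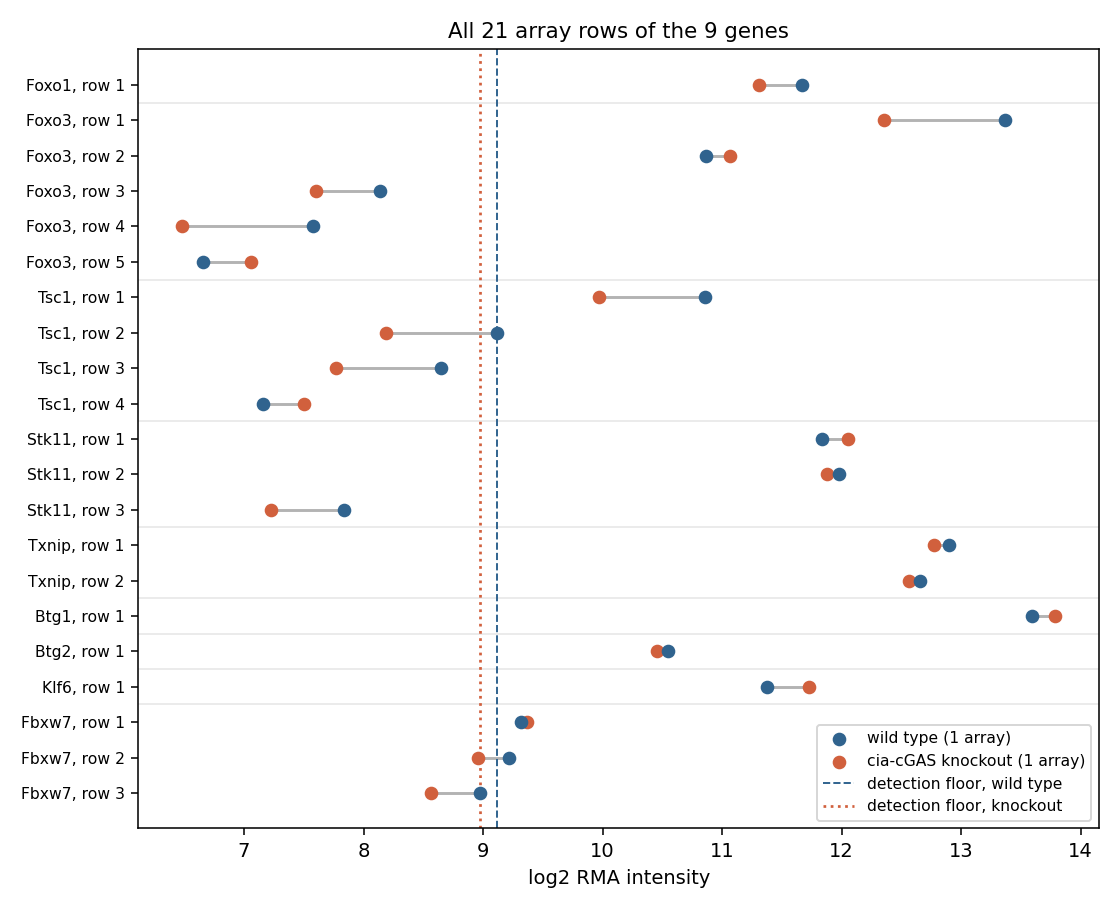
Log2 RMA intensity of each of the 21 rows (y axis, ordered within a gene from brightest to dimmest by the mean of both arrays) in wild type and knockout, with the detection floor of each array as a vertical line. The knockout point of the brightest Foxo3 row and of the brightest Tsc1 row lies to the left of the wild-type point, whereas the pairs of points of Txnip, Btg1 and Btg2 lie close together.

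Most of the 9 genes were read at nearly the same level on both arrays. By the brightest row, 1 member, Foxo3, was lower in the knockout by 2-fold or more and 0 were higher by as much. Across the 9218 genes above both floors, 4.18% were at least 2-fold lower and 5.37% at least 2-fold higher. At 1.5-fold, 2 members were lower (Foxo3 and Tsc1) and 0 were higher, against 12.5% and 11.4% of all genes. The median difference of the members, knockout minus wild type, was -0.09, with 4 positive and 5 negative values. Over all genes the median was -0.04, 46.4% of values were positive, and the typical size of a difference, sign aside, was 0.30. Rows of the same gene gave a scale for disagreement between rows. Over 2887 genes with several detected rows, row differences varied within a gene with a pooled SD of 0.37. These rows were read on the same 2 arrays, so the SD holds no variation between animals, sorts or arrays. It is not a replicate error. Differences of 2 members, Foxo3 and Tsc1, were larger than this SD, as were those of 41.6% of all genes.

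**Figure D2:**
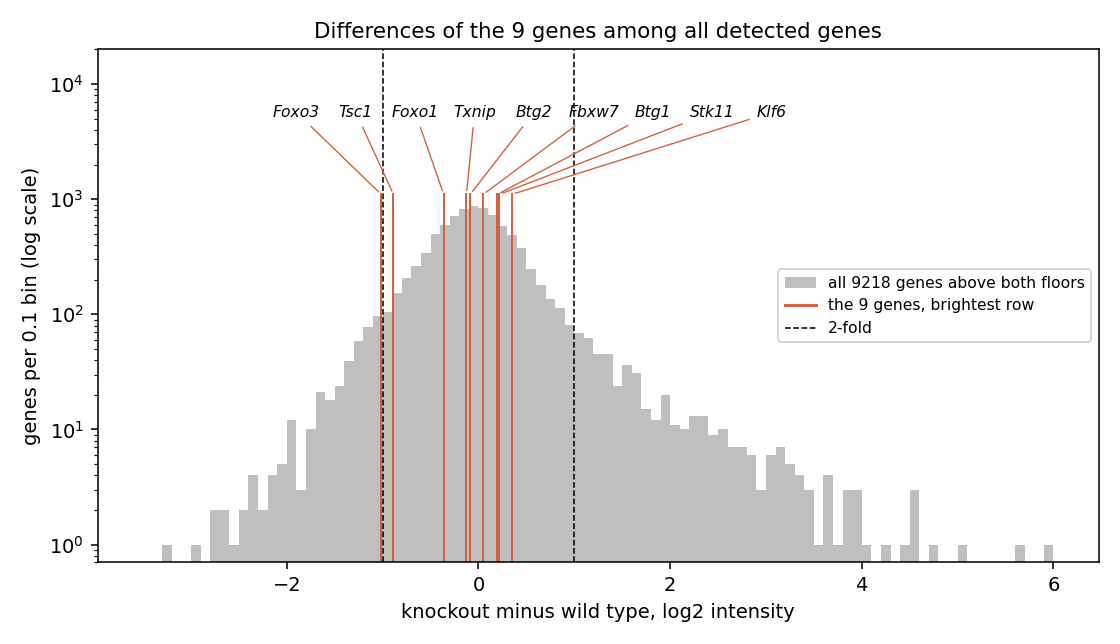
Histogram of knockout minus wild-type log2 differences for the 9218 genes above both floors (log count axis), with the 9 genes as vertical lines and dashed lines at 2-fold. Foxo3 at -1.01 and Tsc1 at -0.89 sit in the lower tail, and the other 7 lie between -0.36 and 0.34.

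Foxo3, the FOXO factor most closely tied to stem cell quiescence, gave the largest difference and the widest disagreement between rows (gene ID 56484). Its brightest row read an intensity of 10582 on the wild-type array and 5240 on the knockout array, or 13.37 and 12.36 on the log2 scale. The difference of -1.01 is a 2.02-fold lower level, just past the 2-fold line, and 3.97% of all genes above both floors had a lower value. After centring on a loess curve it was -0.98, short of 2-fold. The next row, also above both floors, went the other way, with 10.86 on the wild-type array and 11.07 on the knockout array, a difference of 0.20. The remaining 3 rows lay below both floors and give no measured fold. Their readings were 8.14 and 7.61, 7.58 and 6.48, and 6.66 and 7.06 in wild type and knockout. Thus the direction for Foxo3 rested on which row was read.

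The 2 detected rows annotated to Foxo3 have spans on different stretches of the chromosome. In the array's annotation (MM9, chromosome 10, a gene on the minus strand) the brightest row is a transcript from 41901650 to 41905282, whose source record calls its product unclassifiable. The second row spans 41905591 to 41996548 and is annotated as forkhead box O3. Their spans do not overlap, with 309 bases between them, and the brightest row is the one on the 3′ side. All 5 rows together span 94898 bases, and the RefSeq gene model of Foxo3 is 94851 bases long. The labelling was primed with oligo dT, which starts at the 3′ end of mRNAs. Whether the 3′ row and the longer row read the same mRNA was not tested.

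A gap between rows as wide as that of Foxo3 was uncommon on these arrays, but rows of opposite sign were not. Of genes with several detected rows, 39.6% had detected rows of both signs. The gap between the differences of the 2 detected Foxo3 rows was 1.22 on the log2 scale. Among 143 genes whose brightest and next brightest detected rows do not overlap, the median gap was 0.38, and 7 genes (4.90%) had a gap as large as that of Foxo3. Among 2744 genes whose rows overlap, the median gap was 0.30 and 71 (2.59%) had one as large. Of 226 genes with a detected row at -1 or less, 41 (18.1%) had another detected row above 0, as Foxo3 did.

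**Figure D3:**
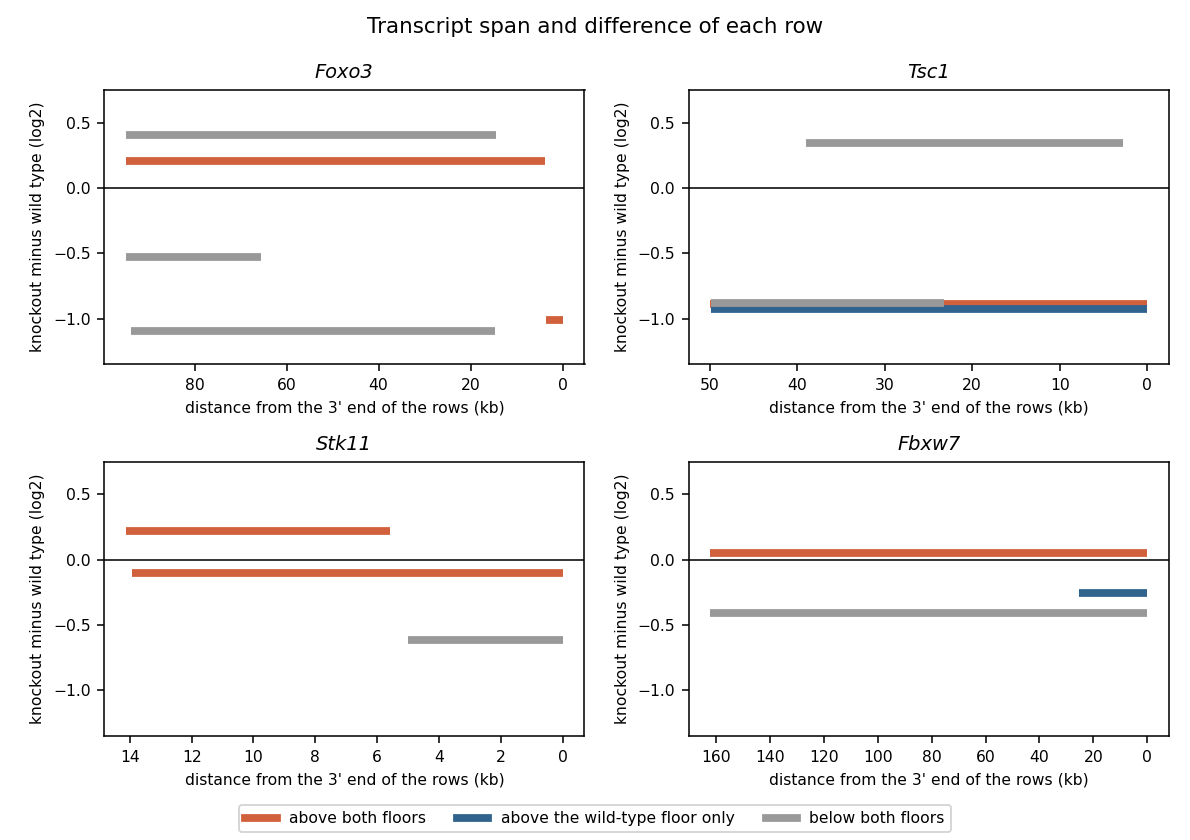
Span of each row of Foxo3, Tsc1, Stk11 and Fbxw7 as a bar, placed by its distance from the 3′ end of all rows of the gene (x axis, kb) and by its knockout minus wild-type difference (y axis, log2), coloured by detection. The short 3′ row of Foxo3 at -1.01 stands apart from the long row at 0.20, and both are above both floors. Of the 4 Tsc1 rows 1, at -0.89, is above both floors.

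Foxo1, which shares the DNA-binding forkhead domain and is also needed in early B cells, was read by 1 row (gene ID 56458, MM9 chromosome 3 from 52072719 to 52150296). It read 3259 on the wild-type array and 2535 on the knockout array, 11.67 and 11.31 on the log2 scale. The difference of -0.36, 1.29-fold lower, was within the spread between rows of a gene, and 42.7% of all genes had a difference at least as large in size. Of the other FOXO genes, Foxo6 read 11.04 and 10.70, a difference of -0.34. Foxo4 lay below both floors, at 7.34 and 8.62.

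Markers of B lineage and erythroid cells had lower summed levels in the knockout. Of 11 B lineage genes measured, 8 were above the wild-type floor and 4 above the knockout floor, with 7 lower by 2-fold or more and 0 higher. Their summed level was 14.38 on the log2 scale on the wild-type array and 11.90 on the knockout array, and Cd79a and Igll1 were among those below both floors. Among 9 erythroid genes 3 were lower by 2-fold or more and 0 higher, with summed levels of 16.68 and 16.36, and Epor and Klf1 lay below both floors. All 6 erythroid genes above both floors had negative differences. A summed level follows the brightest genes of a list, here Hba-a1 and Hbb-b1, which differed by -0.18 and -0.21. The part of these cells in the values of Foxo1 and Foxo3 was not tested. In RNA of a whole sorted population, fewer cells of a type and less RNA per cell cannot be told apart. Of 10 LT-HSC and progenitor genes, Kit, Ly6a, Gata2, Tek, Cd34 and Mecom were above both floors and none of the 10 reached 2-fold, while Procr and Slamf1 were among those below both.

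Tsc1 encodes hamartin, which stabilises Tsc2 in the complex that restrains mTOR, and it had 1 row measured on both arrays (gene ID 64930, MM9 chromosome 2). The brightest row, from 28496762 to 28546687, read 1853 on the wild-type array and 1002 on the knockout array, 10.86 and 9.97 on the log2 scale. The difference of -0.89 was 1.85-fold lower, and 5.52% of all genes had a lower value. The second row spans nearly the same bases and read 9.12 and 8.19, above the floor in the wild type alone. Against the knockout floor it was at least 1.10-fold lower. The third row, ending at 28523479, read 8.65 and 7.77, below both floors. The fourth row, the dimmest, read 7.16 and 7.50, also below both floors. The readings of the 4 rows differed by -0.89, -0.93, -0.88 and 0.34. Only the first of these is a measured difference, so agreement between Tsc1 rows could not be measured. With the floor raised to the 99th percentile of receptor rows, the brightest row passed it in the wild type alone, with a bound of -0.73.

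Stk11 showed no difference that its rows shared (gene ID 20869, MM9 chromosome 10). One row, from 79579091 to 79587630, read 11.84 on the wild-type array and 12.05 on the knockout array, 1.16-fold higher. Another row, from 79579280 to 79593215, read 11.98 and 11.88, 1.07-fold lower. The third row, covering only the 3′ part from 79588223, lay below both floors at 7.83 and 7.22. The differences of the detected rows, 0.22 and -0.10, lay on either side of 0, and 59.9% of genes with several detected rows had a range at least as wide.

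Txnip was read at high intensity by 2 rows that cover almost the same bases, and they gave nearly the same answer (gene ID 56338, MM9 chromosome 3 from 96361901 to 96365782). One read 12.90 on the wild-type array and 12.77 on the knockout array and the other 12.65 and 12.57. Their differences of -0.13 and -0.09 lay 0.04 apart, a range that 2744 of the 2887 genes with several detected rows reached or passed. The level of Txnip on the 2 arrays thus differed by 1.09-fold or less in either row.

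The BTG genes and Klf6 had 1 row each. Btg1 (gene ID 12226, MM9 chromosome 10 from 96079660 to 96082261) read 12349 on the wild-type array and 14140 on the knockout array, 13.59 and 13.79 on the log2 scale, a difference of 0.20. Btg2, also a p53 target (gene ID 12227, chromosome 1 from 135971747 to 135975682), read 1492 and 1404, 10.54 and 10.46 on the log2 scale, a difference of -0.09. Btg1 was thus 1.15-fold higher and Btg2 1.06-fold lower, both smaller than the spread between rows of a gene. Klf6 (gene ID 23849, chromosome 13 from 5860791 to 5867036) gave the highest difference among the members. It read 2661 and 3380, 11.38 and 11.72 on the log2 scale, 1.27-fold higher in the knockout, and 44.8% of all genes had a difference at least as large in size.

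Fbxw7 lay close to the floor, so its values are the least certain of the members (gene ID 50754, MM9 chromosome 3). The brightest row, from 84619399 to 84781551, read 638 on the wild-type array and 660 on the knockout array, 9.32 and 9.37 on the log2 scale, a difference of 0.05. A row that begins further downstream, at 84756268, read 9.21 and 8.96 and was at least 1.18-fold lower against the knockout floor. The third row read 8.98 and 8.56, below both floors. The third row has nearly the same span as the first, but below both floors it gives no measured difference to compare with it.

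Genes that work beside the 9 regulators were counted in 8 lists, chosen with earlier results of these data known. Counts include genes above 1 floor whose bound reaches 2-fold. Counted the same way, 5.54% of the 10839 genes above either floor were higher and 4.06% lower. Of 11 genes of the PI3K-AKT-mTOR inhibitory arm above either floor 0 reached 2-fold, and the differences of the 9 above both floors ran from -0.17 to 0.35 with a median of -0.02. This list included Tsc2, the partner of Tsc1, which read 13.52 on the wild-type array and 13.47 on the knockout array. The lipid phosphatase gene Inpp5d differed by -0.17 and Pik3ip1, an inhibitor of PI3K, by 0.35. Of 22 genes of the activating arm above either floor, 1 was higher by 2-fold or more and 0 were lower. The median was -0.05. Eif4ebp1 was counted in both arms. The higher gene was Sgk3, a kinase related to AKT, with 12.13 and 13.96, 3.55-fold higher. Each of the 3 detected rows of Sgk3 differed by 1.27 or more. Akt1 differed by -0.62 from its brightest row and by 0.35 from the other, and Mtor by -0.30.

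Known FOXO target genes did not move one way. Of 20 above either floor, 4 were higher by 2-fold or more and 1 was lower. The median of the 18 above both floors was 0.08. The mitochondrial superoxide dismutase gene Sod2 read 10.81 on the wild-type array and 13.92 on the knockout array, 8.63-fold higher. The death gene Bcl2l11 was 2.54-fold higher and Ccng2, an unconventional cyclin of resting cells, 2.07-fold, with its other row at 1.78 on the log2 scale. Il7r, the interleukin 7 receptor of early lymphoid cells, read 10.60 and 9.34, 2.40-fold lower. The cell cycle inhibitor gene Cdkn1b was above the floor in the wild type alone and at least 1.59-fold lower, with a bound of -0.28 on the log2 scale when its rows were averaged, while the stress sensor gene Sesn1 differed by -0.05 and Sesn3 was at least 1.25-fold higher. Interferon-stimulated markers were higher on the same array, 9 of 10 at least 2-fold, with summed levels of 14.75 and 17.90, and neutrophil markers had summed levels of 17.19 and 17.49. The 11 neutrophil markers included 9 above both floors, of which 1 was at least 2-fold higher, and Cebpe and Prtn3 were below both. Of the 9, 8 were positive and 1, Mpo, was negative at -0.41. Of 9 monocyte and macrophage markers 3 were higher by 2-fold or more and 0 lower, with summed levels of 14.53 and 15.51. Of these higher genes, Fcgr1 and Ms4a6c were above the knockout floor alone and counted by their bounds. The 7 markers above both floors were divided, with 4 positive and 3 negative (Cd14, C1qb and Cd68). The part of interferon-stimulated genes and of these other cells in the values of Sod2 and Il7r was not tested.

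**Figure D4:**
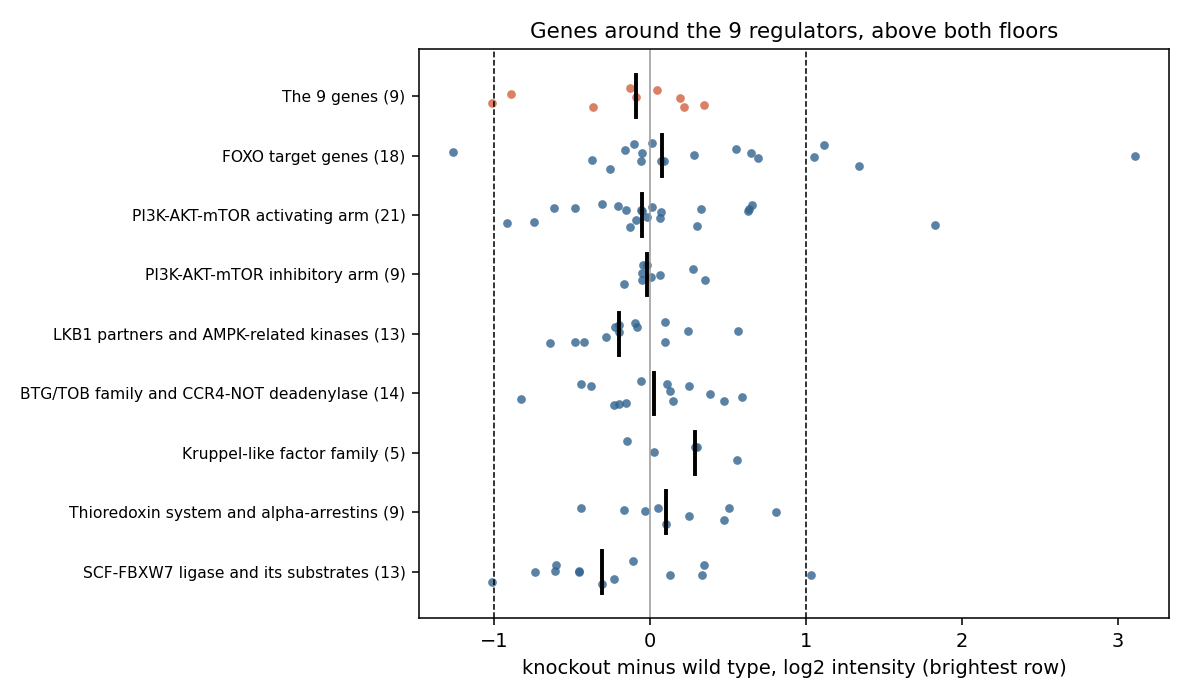
Knockout minus wild-type log2 differences (x axis, brightest row) of the 9 genes and of the genes of 8 lists that lie above both floors (their number in brackets), with the median as a black bar and dashed lines at 2-fold. The medians lie between -0.30 and 0.29, and the FOXO target list has the widest spread, from Il7r at -1.26 to Sod2 at 3.11.

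The other lists stayed mostly within 2-fold. Among LKB1 partners and AMPK-related kinases 0 of 14 passed it, with a median of -0.20. Cab39, which with its partner pseudokinase activates LKB1, differed by -0.28, and Strada and the AMPK subunit gene Prkaa1 lay below both floors. Of 14 BTG, TOB and CCR4-NOT genes 0 passed 2-fold, with a median of 0.03. Tob1 differed by 0.38, Btg3 by 0.13 and the deadenylase gene Cnot7 by 0.47, with another of its rows at 1.07. Among Kruppel-like factors 0 of 7 passed, with a median of 0.29 over 5 genes that became 0.06 with rows averaged and 0.07 with no floor, and Klf4 differed by 0.02. In the thioredoxin and arrestin list 0 of 10 passed, with a median of 0.11, which became 0.48 with rows averaged and 0.01 with no floor. Thioredoxin itself, Txn1, differed by 0.81 and Arrdc3, a relative of Txnip, by 0.51.

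Partners and substrates of Fbxw7 had a median of -0.30 over 13 genes, the value of Mtor, which is also in the activating arm. Of these genes 9 were negative and 4 positive, where 46.4% of all genes above both floors were positive. The median was -0.14 with rows averaged or with the dimmest detected row and -0.17 with no floor. Of the 13, 1 passed 2-fold upward and 1 downward. The survival gene Mcl1 read 14.16 on the wild-type array and 15.19 on the knockout array, 2.05-fold higher, and its other detected row differed by 0.66. The cyclin E genes Ccne2 and Ccne1, which drive entry into S phase, differed by -1.01 and -0.73. Myc differed by -0.23, and Usp28, which opposes Fbxw7 by removing ubiquitin, lay below both floors. Fbxw7 acts on the proteins of its substrates, which these arrays do not measure.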

How the data were processed

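The deposited files hold 1 linear intensity per transcript row and array, which the authors made by RMA, per the submitters' processing notes. The RMA version and the arrays it ran over were not given in the sources used here. RMA equalises array distributions, so differences are relative to other genes. Per the file headers, transcripts are placed on MM9.

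Intensities were put on the log2 scale without further normalization (Python 3.11.15, pandas 2.3.3). Rows were named by gene ID through RefSeq (39057 of 44170), otherwise by the file. The brightest row stood for a gene. The floor was the 95th percentile of 1012 receptor rows, pseudogenes left out. A gene above 1 floor alone has a bound against the other floor. Precision is limited by the number of arrays. Calculations were tested on simulated data, with planted changes larger than any member difference in genes well above the floors. That test did not cover values near 2-fold or near a floor. Named were all member rows, up to 3 genes a list in each direction at 2-fold, and fixed anchors, of which Klf2 matched no row used here. Some genes of the lists are counted but not reported here by name. Members and lists were chosen with earlier results of these data known.

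Alternatives were other floors, rows averaged or the dimmest detected row, loess centring (span 0.3, statsmodels 0.14.6), folds of 1.5 and 3, and the series-wide table, which held the same intensities to within 1.28e-06 on the log2 scale.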

Additional observations from a re-analysis of the deposited data

How the results depend on the processing

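With 1 array a group, nothing here has a replicate check. No paired analysis was possible because each group has 1 sample. For Foxo3 the choice of row decided the direction: the dimmest detected row gave 0.20 in place of -1.01. With all rows averaged its mean passed the wild-type floor alone, leaving a bound of -0.35. The count of members at least 2-fold lower, 1 as reported, was 0 with rows averaged, with the dimmest row, after loess centring and at 3-fold, and 2 at 1.5-fold. The count of members higher was 0 under all 9 alternatives. With rows averaged the Stk11 difference was -0.16, and Tsc1 lay below both floors and gave no value, as did Fbxw7 with the floor at the 99th percentile of receptor rows. Of 61 values of the 9 members under alternatives, 58 moved by less than the pooled SD of row differences. This count is no measure of robustness, because many values could not move. The series-wide table held the same intensities, and other floors left most brightest-row values as they were. For the 4 members with 1 row, the choice of row changed nothing. Those that moved further were values of Foxo3 and Stk11 under another choice of row.

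Over all genes above either floor, 600 were at least 2-fold higher and 440 lower. The higher count was 1255 at 1.5-fold, 281 at 3-fold and 1407 with no floor. The lower count was 1334 at 1.5-fold, 84 at 3-fold, 1432 with no floor, 237 with rows averaged and 288 with the floor at the 99th percentile of receptor rows. Medians of the context lists were small and moved with the choice of rows. That of the activating arm was 0.07 with the dimmest row and 0.02 with rows averaged, in place of -0.05, and that of the BTG, TOB and CCR4-NOT list -0.02 with the dimmest row and 0.17 with rows averaged, in place of 0.03. For FOXO targets it was 0.23 with rows averaged, in place of 0.08. Signal over background limits Fbxw7 most, whose brightest row lay 0.20 above the wild-type floor and 0.39 above that of the knockout.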
